A study of Mus musculus with 12 samples.

Results

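Ndrg1 and Etnppl are a pair of mouse liver genes that were low in all 3 libraries of the group given L.J. alone. Both were near the control level in the group given busulfan together with L.J. They are 2 of the 21004 genes in the deposited table, and both passed the filter on low values, which kept 10786 genes for testing (at least 1 FPKM in at least 3 libraries). Both were chosen from their own levels: a fall with L.J. alone, and a level near control with both treatments. Those contrasts therefore only describe them, and no test of the pair is given there. FPKM, the authors' unit, is the number of fragments scaled by transcript length and by library size.

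The 12 libraries came from total RNA of whole liver of ICR mice, an outbred stock, at 8 weeks of age, with 3 libraries in each of 4 groups: busulfan plus L.J., L.J., busulfan and control. L.J. was given at 10 mg/kg in both groups that received it. Busulfan is an alkylating drug that crosslinks DNA and is toxic to blood-forming and germ cells. What L.J. is, the dose of busulfan, the sex of the mice and what the controls received are stated neither in the labels nor in the design text. Nothing states that the libraries of a group came from separate animals, so the errors and p-values below measure the spread between libraries, which may be partly technical. The series' design text names FMT in livers damaged by busulfan, and does not say how L.J. relates to FMT.

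NDRG1 is the founding member of the N-myc downstream regulated family, cytoplasmic proteins with an alpha/beta hydrolase fold that lack the catalytic residues of true hydrolases. Its transcription is known to rise in hypoxia through HIF and to be repressed by MYC and MYCN, and the protein is phosphorylated by SGK kinases and then by GSK3. ETNPPL, ethanolamine-phosphate phospho-lyase, is a pyridoxal phosphate enzyme that splits phosphoethanolamine, an intermediate of phosphatidylethanolamine synthesis, into acetaldehyde, ammonia and phosphate. Liver and brain are its main sites of expression.

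In the GRCm38 build (mm10), Ndrg1 (gene ID 17988) lies on the minus strand of chromosome 15 from 66929318 to 66969641, with 16 exons in its 1 curated RefSeq transcript. The annotation places Gm17035, an antisense RNA, and Gm2895, a long non-coding RNA at the shared promoter, on the opposite strand over parts of Ndrg1. Neither is a row of the table. Whether the libraries kept strand is not given, so reads of Ndrg1 and of these RNAs cannot be told apart there. Etnppl (gene ID 71760) lies on the plus strand of chromosome 3 from 130617448 to 130635750, with 13 and 14 exons in its 2 curated transcripts, and no annotated gene overlaps it.

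The sequence just upstream of the first Etnppl start, chr3:130617198-130617447 on the plus strand (RefSeq, GRCm38.p6), is shown because the RNA level of Etnppl set the L.J. livers apart and this is the stretch searched for response elements.
Etnppl upstream: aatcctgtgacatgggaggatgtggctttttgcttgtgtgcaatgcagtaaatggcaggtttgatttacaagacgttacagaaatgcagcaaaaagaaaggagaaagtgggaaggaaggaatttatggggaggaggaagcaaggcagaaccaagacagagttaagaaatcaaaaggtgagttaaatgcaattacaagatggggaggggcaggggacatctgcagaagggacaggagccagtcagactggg
These 250 bases run 5′ to 3′ with no capitals, since none of the 5 motifs searched on both strands has a match in them. The glucocorticoid receptor half-site AGAACA occurs in 16.1% of the 32851 windows of the same length and placement over all annotated starts, the hypoxia response core ACGTG in 16.6%, the cAMP half-site TGACG in 17.8%, the STAT5 site TTCNNNGAA in 7.02% and the C/EBP site TTGCNNAA in 9.56%. The 250 bases upstream of the second annotated start held no match either. No match says only that these letters are missing from these windows.

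Depth could be read in part from the steps of low values, since 1 read is worth the same FPKM times length in every gene of a library. On annotated lengths the steps of short genes correspond to about 11900000 to 18700000 reads, lowest in control replicate 1 and highest in L.J. replicate 1. On that scale Ndrg1 rested on about 251 to 700 reads and Etnppl on about 1118 to 3884 reads per library. These are estimates, as the lengths the authors used are not given. Reads are not independent molecules, so no interval for counting error is given.

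L.J. replicates 1 and 3 stood apart from the other 10 libraries, and the differences of the pair from the L.J. group are therefore given with and without them. The 21 major urinary protein (Mup) genes, abundant products of male hepatocytes, made up 1.36% and 0.0956% of all FPKM in those 2 libraries, 23.9% in L.J. replicate 2, and between 11.7% and 36.7% in the other groups. Over all genes tested, 27 passed in L.J. versus control at an adjusted p under 0.05 (limma, Benjamini-Hochberg), 21 higher and 6 lower, which is 0.25% of genes. That count was 1800 without L.J. replicate 2, 7 without L.J. replicates 1 and 3, 5 without L.J. replicate 3, 70 without control replicate 1, 5 without control replicate 2 and 1 without control replicate 3. Scaling to equal medians gave 50 higher and 62 lower genes. In the values as deposited, the median gene lay 0.17 higher on the log2 scale with L.J. For busulfan plus L.J. versus L.J., 3 genes passed (0.0278%), against 1164 without L.J. replicate 2, 1 without busulfan plus L.J. replicate 1, and none without L.J. replicate 1 or without busulfan plus L.J. replicate 3.

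Ndrg1 stood at 10.49, 14.65 and 13.69 FPKM in the livers given busulfan plus L.J. (replicates 1, 2 and 3). With L.J. alone it stood at 4.64, 5.82 and 5.42 FPKM. With busulfan alone the values were 11.68, 9.93 and 10.58 FPKM, and in control livers they were 12.79, 10.61 and 13.29 FPKM. All 3 L.J. libraries were thus lower than each of the other 9, while the other 3 groups overlapped one another. The means were 12.9 ± 2.18 FPKM with both treatments, 5.29 ± 0.600 with L.J., 10.7 ± 0.885 with busulfan and 12.2 ± 1.43 in control livers (SD, n = 3 each). Relative to the control mean, Ndrg1 stood at 106% with both treatments, 43.3% with L.J. and 87.7% with busulfan.

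Etnppl was the more abundant of the pair. Its values were 38.69, 38.25 and 28.66 FPKM with busulfan plus L.J., and 13.42, 16.54 and 17.34 FPKM with L.J. alone. Busulfan alone gave 48.23, 38.74 and 40.8 FPKM, and control livers 32.1, 41.34 and 41.71 FPKM. Again the L.J. libraries lay below the other 9. The group means were 35.2 ± 5.67 FPKM with both treatments, 15.8 ± 2.07 with L.J., 42.6 ± 4.99 with busulfan and 38.4 ± 5.44 in control livers (SD, n = 3 each), or 91.7% of the control mean with both treatments, 41.1% with L.J. and 111% with busulfan. In control livers the Etnppl level was higher than that of 86.8% of the genes tested, and the Ndrg1 level higher than that of 68.0%.

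**Figure D1:**
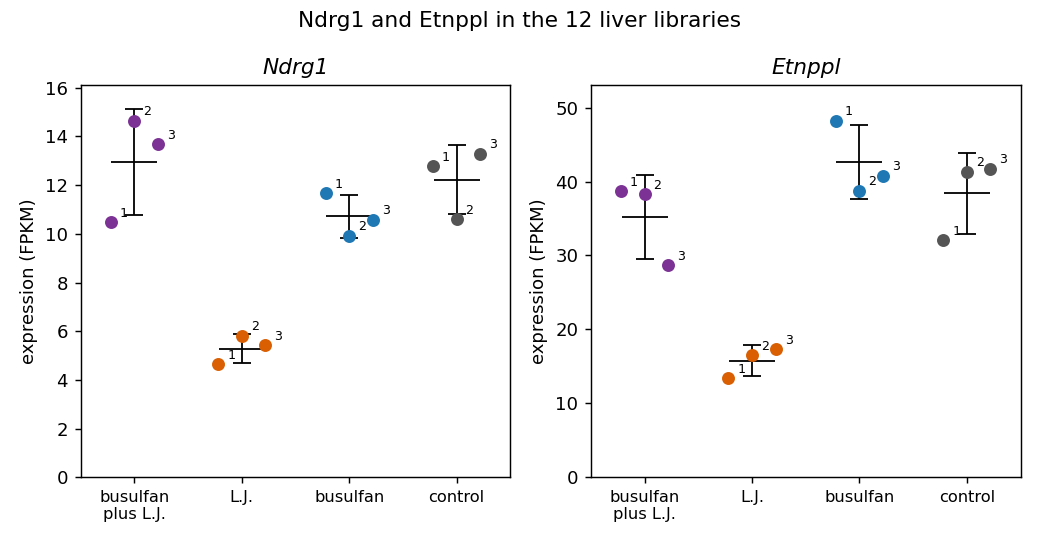
Expression of Ndrg1 (left) and Etnppl (right) in FPKM on axes that start at 0, with 1 point per library numbered by replicate, a line at the group mean and bars of ± 1 SD (n = 3). The highest L.J. value is 5.82 FPKM for Ndrg1 and 17.34 FPKM for Etnppl, and the lowest value of the other 9 libraries is 9.93 FPKM for Ndrg1 and 28.66 FPKM for Etnppl.

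In order of level, Ndrg1 was lowest with L.J., followed by busulfan, control and busulfan plus L.J. For Etnppl the order was L.J., busulfan plus L.J., control and busulfan. In both orders the step above the L.J. group was larger than the SD of either neighbour. All pairs of neighbours above it overlapped. For Ndrg1 the step from busulfan (10.7 ± 0.885 FPKM) to control (12.2 ± 1.43 FPKM) was also larger than either SD. None of the other steps was. The ends of the upper 3 groups were ordered oppositely, since busulfan livers had the lowest Ndrg1 mean and the highest Etnppl mean among them.

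The L.J. group gave the values that chose the pair. On the log2(FPKM + 1) scale, the difference between L.J. and control livers was -1.07 (SE 0.14) for Ndrg1 and -1.23 (SE 0.16) for Etnppl, where the median of all genes tested was 0.17. Relative to that median the differences were -1.24 and -1.40. The ratio of mean FPKM was 0.433 for Ndrg1 and 0.411 for Etnppl. Values of L.J. and control livers did not overlap with L.J. lower for 2.87% of genes tested, and both genes are among these by their choice.

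With L.J. replicate 2 as the only L.J. library, the differences from control were -0.95 (SE 0.20) for Ndrg1 and -1.16 (SE 0.23) for Etnppl. Both genes were nearly as low in the L.J. library whose Mup share lay inside the range of the other groups. A low level with L.J. is what chose the pair, so its evenness over the L.J. libraries is a description and no test. Male-biased, female-biased and acute-phase genes differed more between the L.J. libraries. Hepatocyte markers did not, with medians of -0.12, 0.07 and 0.04 relative to the control mean in L.J. replicates 1, 2 and 3 (log2 scale). Relative to the control mean, the median of 14 male-biased genes was -2.14, -0.13 and -3.38 on the log2 scale in L.J. replicates 1, 2 and 3. Female-biased genes had medians of 2.83, 0.94 and 3.85 in the same libraries, and 20 acute-phase genes had medians of 2.64, 0.44 and 1.94. Ndrg1 gave -1.22, -0.95 and -1.04, and Etnppl gave -1.44, -1.16 and -1.09. The log2 SD over the 3 L.J. libraries was 0.14 for Ndrg1 and 0.18 for Etnppl, beside a median of 0.17 over the 88 genes that were below all 9 other libraries with L.J. and of 0.21 over all genes tested.

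**Figure D2:**
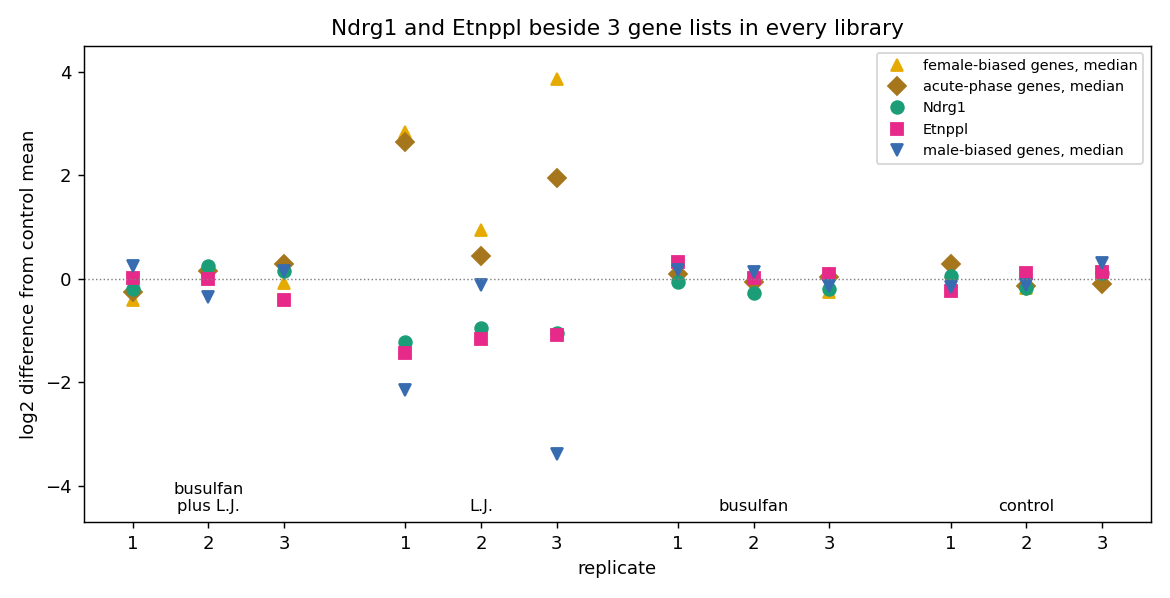
Log2 difference from the control mean (vertical axis) in each of the 12 libraries (horizontal axis, replicate number within group) for Ndrg1, Etnppl and the medians of 3 gene lists. In L.J. replicate 2 the male-biased median is -0.13 and the acute-phase median 0.44, while Ndrg1 is at -0.95 and Etnppl at -1.16.

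L.J. livers lay below all 9 other libraries for 88 genes, or 0.816% of those tested, and above all 9 for 461 genes, or 4.27%. Among the 88, ordered by the log2 gap between the highest L.J. value and the lowest other value, Etnppl came 2nd with a gap of 0.69 and Ndrg1 3rd with 0.68. Cela1, an elastase-type serine protease, came 1st with 0.77, and Serpina5, an inhibitor of serine proteases, 4th with 0.39. This ordering uses the values that chose the pair and describes where they stand. L.J. replicate 2 alone was below all 9 other libraries for 842 genes, and for 10.5% of those L.J. replicates 1 and 3 were below them too.

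In livers given both treatments, compared with L.J. alone, the differences were 1.14 (SE 0.14) for Ndrg1 and 1.11 (SE 0.16) for Etnppl on the log2(FPKM + 1) scale, or ratios of mean FPKM of 2.45 and 2.23. The median of all genes tested was -0.13 in this comparison. Values did not overlap, with both treatments higher, for 3.01% of genes tested. Against L.J. replicate 2 alone the differences were 1.02 and 1.03.

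Compared with control livers, those given both treatments differed by 0.07 (SE 0.14) for Ndrg1 and by -0.12 (SE 0.16) for Etnppl. For both genes the 2 groups overlapped, while they did not overlap for 11.8% of genes tested, and 0% of genes passed the test (limma, 748 at an unadjusted p under 0.05). These comparisons share the control and the doubly treated libraries with the choice of the pair.

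Busulfan alone and its combination with L.J. against busulfan alone were the comparisons on which the choice did not rest, although they share the control libraries and the doubly treated libraries with it. Neither gene differed detectably in either. Busulfan livers against control livers gave -0.17 for Ndrg1 (95% interval -0.48 to 0.14) with an adjusted p of 1 and an unadjusted p of 0.2505 (limma). For Etnppl the difference was 0.15 (95% interval -0.20 to 0.50), with an adjusted p of 1 and an unadjusted p of 0.3712 (limma). These fits do not use the replicate number. With it as a block, since same-numbered busulfan and control libraries deviated together, the adjusted p was 1 for both genes (limma). Ndrg1 was lower with busulfan in 3 of 3 same-numbered pairs, and Etnppl was higher in 1 of 3. Over all genes 0% passed, while 139 genes had an unadjusted p under 0.05. Busulfan and control values overlapped for both genes, and failed to overlap for 5.92% of genes tested.

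Busulfan plus L.J. against busulfan alone gave 0.24 for Ndrg1 (95% interval -0.07 to 0.55, unadjusted p 0.1157) and -0.27 for Etnppl (95% interval -0.63 to 0.08, unadjusted p 0.1153), with an adjusted p of 0.9999 for each (limma). The signs of the 2 genes were opposite, and both intervals held 0. Ndrg1 values overlapped. For Etnppl the highest value with both treatments, 38.69 FPKM, was just under the lowest with busulfan, 38.74 FPKM, a lower group without overlap that 5% of genes tested share. No gene passed in this comparison (0% of genes tested), and 402 had an unadjusted p under 0.05.

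**Figure D3:**
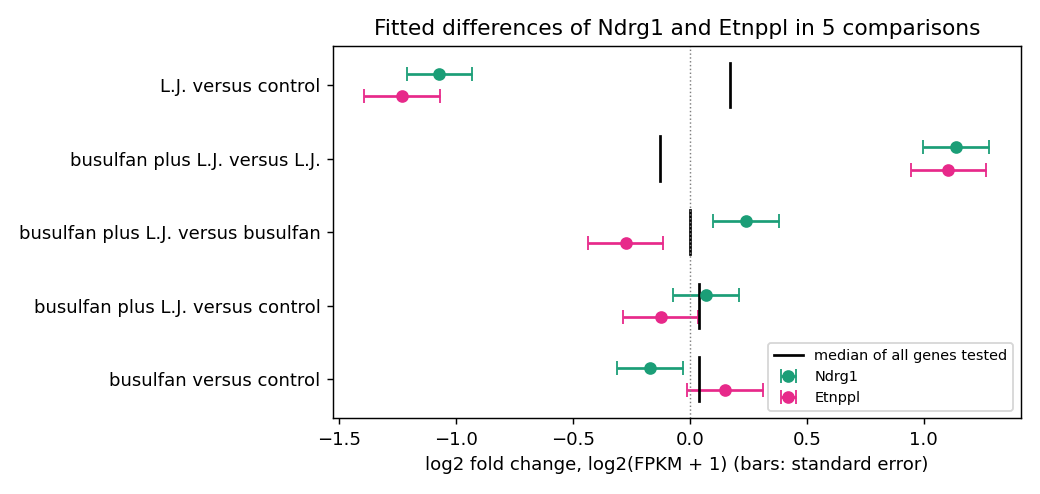
Fitted log2 differences of Ndrg1 and Etnppl on the log2(FPKM + 1) scale (horizontal axis) in 5 comparisons (rows), with bars of 1 standard error and a black tick at the median of all genes tested. Both genes lie at -1.07 or below for L.J. versus control and at 1.11 or above for busulfan plus L.J. versus L.J., and between -0.27 and 0.24 in the other 3 comparisons.

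The difference that L.J. made with busulfan minus the difference it made without busulfan was 1.31 (SE 0.20) for Ndrg1 and 0.96 (SE 0.23) for Etnppl, beside a median of -0.17 over all genes tested. This is the same measure as the choice of the pair and is given without a test. Without L.J. replicates 1 and 3 it was 1.19 for Ndrg1 and 0.88 for Etnppl.

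Within the 9 libraries that received no L.J. alone, no relation between the levels of the 2 genes was detectable. Pearson's r between them on the log2 scale was -0.40 (exact permutation p 0.2981, 2-sided) and Spearman's rho was -0.30 (exact permutation p 0.4366), and r was -0.54 without the 2 libraries farthest from the median Ndrg1 level. The permutation ignored the treatment groups, so r and p mix differences between groups with those within them. This was the only relation between the pair that was tested. No r is given over all 12 libraries as a relation, since the L.J. livers form a cluster of their own for both genes.

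For the genes most like each member, likeness was Pearson's r over the 12 libraries, a value that the L.J. group largely sets, so the levels below are descriptions. Most like Ndrg1 was Cwf19l1, with r of 0.94 over 12 libraries and 0.92 over the 9 libraries outside the L.J. group. Cwf19l1, which encodes a protein related to an RNA splicing factor of yeast, averaged 11.1 ± 1.32 FPKM with both treatments, 7.07 ± 1.05 with L.J., 9.54 ± 0.486 with busulfan and 10.5 ± 1.95 in control livers (SD, n = 3 each). Next came Cela1, with r of 0.89 over 12 libraries and 0.43 over the 9. Rtn4ip1, a mitochondrial oxidoreductase, followed with r of 0.88 and 0.63, Serpina5 with 0.87 and 0.24, and Lonp2, a peroxisomal protease, with 0.86 and 0.49. Etnppl itself ranked 5th for Ndrg1 with r of 0.86.

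Cela1 was less even than the pair, at 4.23, 7.73 and 2.02 FPKM in L.J. replicates 1, 2 and 3, against 13.87 to 24.3 FPKM in control livers. Serpina5 was low throughout, at 0.96, 0.86 and 0.33 FPKM with L.J., against 2.33 to 2.86 FPKM in control livers. Lonp2 was at 68.73, 88.16 and 62.68 FPKM with L.J., against 88.48 to 118.79 FPKM in control livers, so that L.J. replicate 2 lay just under the lowest control.

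Most like Etnppl was Hectd2, which encodes a ubiquitin ligase of the HECT type, with r of 0.91 over 12 libraries and 0.84 over the 9 outside the L.J. group. Hectd2 averaged 29.7 ± 3.12 FPKM with both treatments, 15.7 ± 7.58 with L.J., 39.3 ± 8.80 with busulfan and 35.9 ± 11.5 in control livers (SD, n = 3 each). Mtmr7, a phosphoinositide phosphatase, had r of 0.87 and 0.44, and Ugt3a1, a UDP-glycosyltransferase, 0.86 and 0.71. Hsd3b2, a hydroxysteroid dehydrogenase, had 0.86 and 0.11, and Serpina5 0.86 and 0.29. Ugt3a1 and Hsd3b2 stood lower in L.J. replicates 1 and 3 than in replicate 2: Ugt3a1 at 8.99, 48.29 and 9.55 FPKM, and Hsd3b2 at 13.45, 47.92 and 15.42 FPKM, in replicates 1, 2 and 3. Their control ranges were 50.43 to 85 FPKM for Ugt3a1 and 74.3 to 90.05 FPKM for Hsd3b2.

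**Figure D4:**
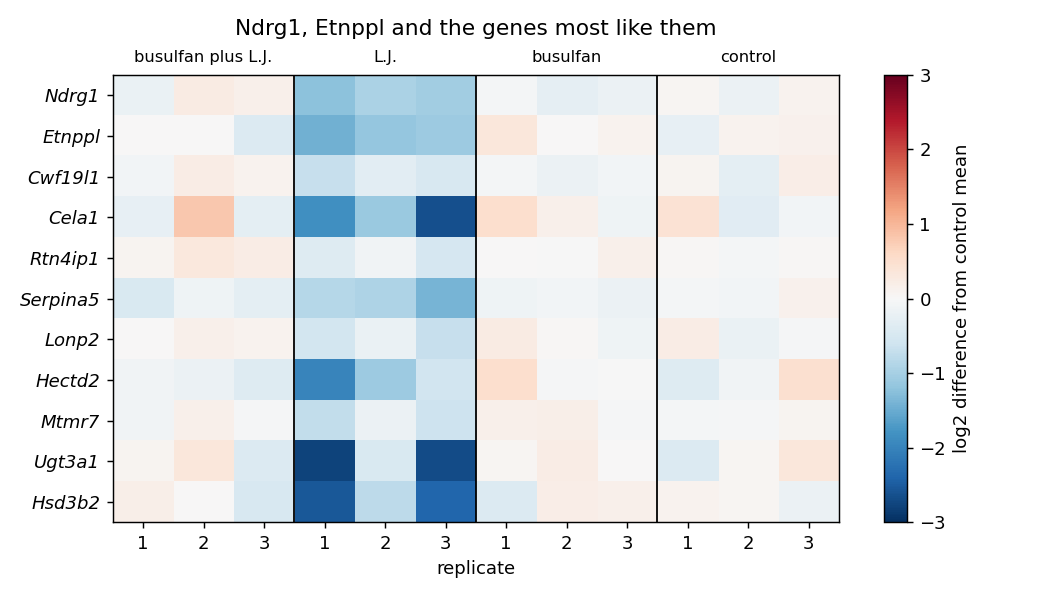
Log2 difference from the control mean (colour, blue for lower and red for higher) of Ndrg1, Etnppl and the 9 genes most like them (rows) in each library (columns, by group and replicate). Ndrg1 and Etnppl have similar shades in all 3 L.J. libraries, between -0.95 and -1.44, while Ugt3a1 and Hsd3b2 are darker in L.J. replicates 1 and 3.

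None of the close relatives of the pair passed in L.J. versus control. Ndrg2, the main family member in liver, averaged 415 ± 33.0 FPKM with both treatments, 397 ± 39.8 with L.J., 431 ± 41.7 with busulfan and 431 ± 10.6 in control livers (SD, n = 3 each), a difference of -0.12 (SE 0.14) for L.J. versus control with a limma adjusted p of 0.6178. Ndrg3 averaged 6.89 ± 0.562 FPKM with both treatments, 6.69 ± 1.22 with L.J., 7.38 ± 0.240 with busulfan and 6.07 ± 0.327 in control livers. Ndrg4 was at 0.06 FPKM or less in every library and was not tested. Ndrg1 therefore made up 2.98% of the summed FPKM of the family with both treatments, 1.29% with L.J., 2.39% with busulfan and 2.72% in control livers. The relatives of Etnppl are Phykpl, which acts on phosphohydroxylysine, and Agxt2, an aminotransferase of glyoxylate and dimethylarginine. Phykpl averaged 6.17 ± 1.83 FPKM with L.J. and 4.57 ± 0.587 in control livers, and Agxt2 51.8 ± 6.85 with L.J. and 60.4 ± 9.95 in control livers (SD, n = 3 each), and neither passed (limma adjusted p 0.2518 and 0.5164). Without L.J. replicate 2, Phykpl rose (limma adjusted p 0.03275), in a setting where 1800 of all 10786 genes passed.

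Of 20 genes known to act on NDRG1 directly or through HIF, 19 were tested. The list holds kinases, transcription factors and the HIF regulators Vhl, Egln1, Egln2 and Egln3. None passed in L.J. versus control (limma), beside 0.25% of all genes. An unadjusted p under 0.05 was found for 7 of the 19, beside 2505 of all 10786 genes tested. Their median difference was 0.26, beside 0.17 over all genes. Without L.J. replicate 2, 4 of the 19 rose, beside 1800 of all 10786 genes that passed in either direction. Of the 19, 17 had a higher fitted level with L.J. The inducers of Ndrg1 were among them, as were its repressors Myc and Mycn, and none passed. Hif1a, the oxygen-regulated HIF subunit, averaged 11.8 ± 1.35 FPKM with L.J. and 8.89 ± 0.283 in control livers (limma adjusted p 0.1). Epas1, its paralogue, averaged 45.0 ± 16.1 FPKM with L.J. and 26.6 ± 5.95 in control livers (limma adjusted p 0.1406). Arnt, their shared partner, averaged 10.5 ± 2.01 FPKM with both treatments, 12.6 ± 1.78 with L.J., 9.31 ± 0.606 with busulfan and 7.97 ± 1.57 in control livers (SD, n = 3 each; L.J. versus control limma adjusted p 0.08169). Egln2, a prolyl hydroxylase that marks HIF for degradation, averaged 17.6 ± 1.56 FPKM with both treatments, 21.0 ± 2.31 with L.J., 18.5 ± 2.62 with busulfan and 16.5 ± 3.47 in control livers.

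The Ndrg1 repressors Myc and Mycn were near the filter. Myc averaged 1.56 ± 0.725 FPKM with L.J. and 0.993 ± 0.110 in control livers. Mycn stood at 0.760 ± 0.394 FPKM with both treatments, 1.27 ± 0.934 with L.J., 1.25 with busulfan (1.2 to 1.3) and 0.650 ± 0.125 in control livers, while Mycl, a relative, stood at 1.39 ± 0.235 FPKM with both treatments, 2.15 ± 0.698 with L.J., 1.69 ± 0.0737 with busulfan and 1.61 ± 0.281 in control livers (SD, n = 3 each). Neither of the Sgk genes with the smallest p passed. Sgk1, which is induced by glucocorticoids and phosphorylates NDRG1, averaged 18.0 ± 13.6 FPKM with L.J. and 5.58 ± 0.696 in control livers (adjusted p 0.1522), with 1 L.J. library, at 5.03 FPKM, inside the control range. Sgk2 averaged 8.35 ± 0.557 FPKM with L.J. and 13.3 ± 2.65 in control livers (adjusted p 0.1477, limma, SD, n = 3 each).

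Of 29 hypoxia response genes, 20 were tested and none passed in L.J. versus control (limma), with a median difference of 0.23, beside 0.17 over all genes. An unadjusted p under 0.05 was found for 6 of the 20, beside 2505 of all 10786. Without L.J. replicate 2, 4 of the 20 rose and 1 fell, beside 1800 of all 10786 genes that passed. Slc2a1, a glucose transporter, averaged 5.78 ± 1.78 FPKM with L.J. and 3.14 ± 0.337 in control livers (adjusted p 0.08043, limma), and Ddit4, an inhibitor of mTORC1 signalling, 6.44 ± 3.56 FPKM with L.J. and 2.12 ± 0.172 in control livers (adjusted p 0.08118). Bhlhe40, a transcriptional repressor, averaged 36.8 ± 10.8 FPKM with L.J. and 16.5 ± 1.48 in control livers (adjusted p 0.06897, limma, SD, n = 3 each).

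The enzymes around the substrate of ETNPPL were all measured. None of the 11 tested genes of phosphatidylethanolamine synthesis and turnover passed in L.J. versus control (limma, 0 at an unadjusted p under 0.05), and their median difference was 0.05, beside 0.17 over all genes. Without L.J. replicate 2, 1 of the 11 fell, beside 1800 of all 10786 genes that passed. Etnk2, an ethanolamine kinase, averaged 65.5 ± 21.2 FPKM with L.J. and 58.0 ± 10.9 in control livers, and Pcyt2, which makes CDP-ethanolamine from phosphoethanolamine, 169 ± 12.7 FPKM with L.J. and 163 ± 23.7 in control livers. Pemt, which methylates phosphatidylethanolamine to phosphatidylcholine, averaged 276 ± 35.4 FPKM with L.J. and 245 ± 58.0 in control livers, and Cept1, which joins CDP-ethanolamine or CDP-choline to diacylglycerol, 37.8 ± 5.92 FPKM with L.J. and 31.9 ± 5.26 in control livers (SD, n = 3 each). Ptdss1, which makes phosphatidylserine, stood at 10.4 ± 1.07 FPKM with both treatments, 11.9 ± 1.51 with L.J., 10.5 ± 0.259 with busulfan and 9.98 ± 1.33 in control livers.

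Phospho1, the phosphatase that also consumes phosphoethanolamine, was the most variable gene of that list. It averaged 14.2 ± 1.09 FPKM with both treatments, 6.24 ± 5.98 with L.J., 10.5 ± 1.27 with busulfan and 7.33 ± 2.35 in control livers (SD, n = 3 each), with L.J. values from 2.57 to 13.14 FPKM. Its difference of 1.37 between both treatments and L.J. did not pass (limma, adjusted p 0.2253). None of 4 tested phosphatidylcholine synthesis genes and none of 6 tested genes of acetaldehyde disposal passed in L.J. versus control (limma, 2 and 1 at an unadjusted p under 0.05), with medians of 0.22 and -0.32. Without L.J. replicate 2, 1 of the 4 fell, beside 1800 of all 10786 genes that passed. Chka, a choline kinase, averaged 37.8 ± 4.93 FPKM with L.J. and 25.6 ± 14.1 in control livers (adjusted p 0.207, limma). Aldh2, the main mitochondrial enzyme that oxidises acetaldehyde, averaged 448 ± 33.0 FPKM with L.J. and 513 ± 128 in control livers (SD, n = 3 each).

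**Figure D5:**
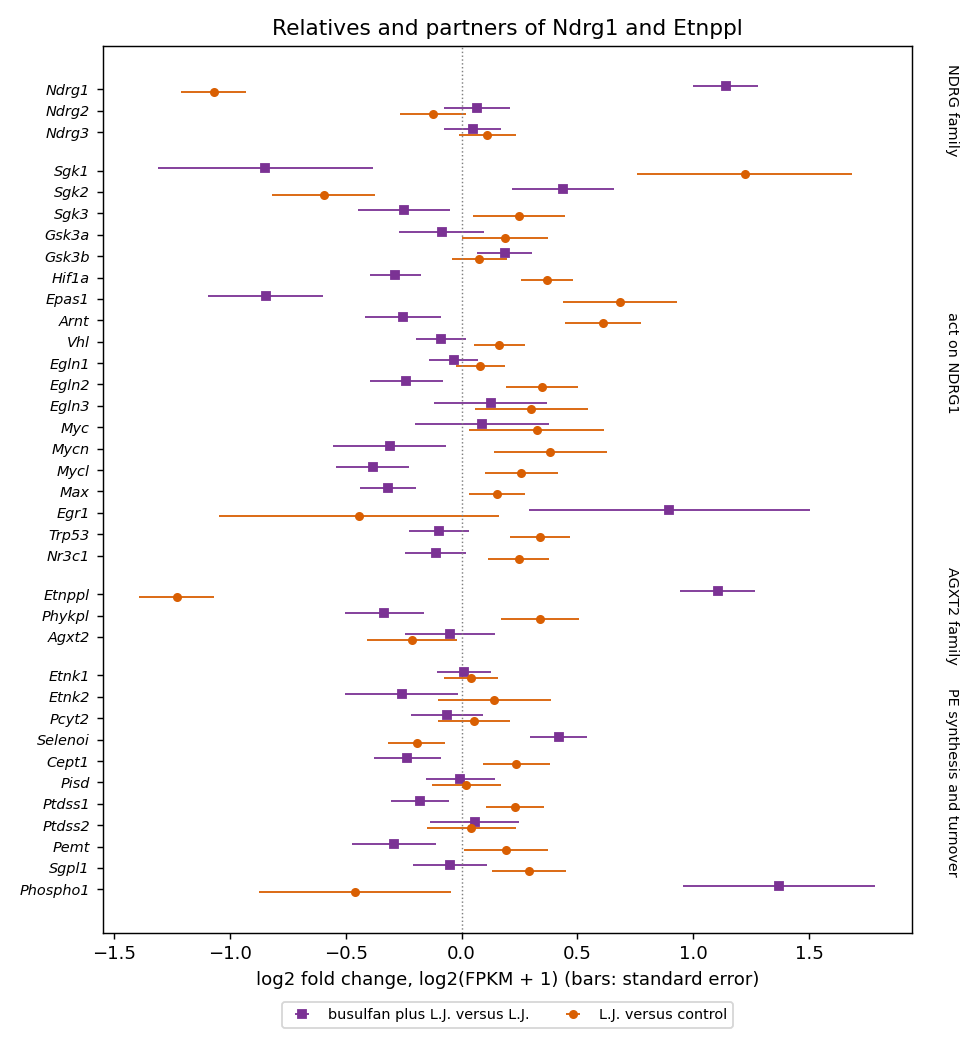
Log2 differences on the log2(FPKM + 1) scale (horizontal axis, bars of 1 standard error) for busulfan plus L.J. versus L.J. (squares) and for L.J. versus control (circles). Rows are the tested NDRG family genes, genes that act on NDRG1 directly or through HIF, AGXT2 family genes and phosphatidylethanolamine (PE) genes. Ndrg1 and Etnppl are at -1.07 and -1.23 for L.J. versus control, while the relatives Ndrg2, Ndrg3, Phykpl and Agxt2 lie between -0.21 and 0.34.

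Among 23 genes of the glucocorticoid and fasting response, 1 fell in L.J. versus control and the median difference was 0.31. That gene was Angptl4, an inhibitor of lipoprotein lipase, at 10.7 ± 1.28 FPKM with both treatments, 11.5 ± 2.21 with L.J., 42.3 ± 15.4 with busulfan and 43.7 ± 14.2 in control livers (SD, n = 3 each; L.J. versus control -1.81, limma adjusted p 0.0183). Angptl4 stayed low with both treatments, whereas Ndrg1 and Etnppl stood near control there. The call did not hold without L.J. replicates 1 and 3 (adjusted p 0.2896), nor without L.J. replicate 1, L.J. replicate 3, control replicate 2 or control replicate 3 (0.05836 to 0.08516). Without L.J. replicate 2, 9 genes of the list rose and 2 fell, beside 1800 of all 10786 genes that passed. No listed gene passed in busulfan versus control, in busulfan plus L.J. versus busulfan or in busulfan plus L.J. versus control.

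None of the 14 male-biased genes passed in L.J. versus control (limma, 11 at an unadjusted p under 0.05), with a median of -1.72, and 12 fell without L.J. replicate 2. Of 9 female-biased genes 2 rose, among them Sult3a1, a sulfotransferase, with a list median of 2.36, and 8 rose without L.J. replicate 2. Sult3a1 also fell with both treatments compared with L.J. alone (-6.55, limma adjusted p 0.03803). That call was lost without L.J. replicate 1 and without busulfan plus L.J. replicate 3. It was also lost with median scaling, with quantile normalization and with Mup genes left out, where 0 genes were lower in that comparison. Of 20 acute-phase genes 2 rose, Saa1 and Saa2, which encode serum amyloid A proteins, with a median of 1.67. All 20 rose without L.J. replicate 2, a setting where 1800 of all 10786 genes passed. With L.J. replicate 2 as the only L.J. library, the list medians were -0.13 (male-biased), 0.94 (female-biased) and 0.44 (acute-phase). Sult3a1 stood at 5.11 and Saa1 at 2.92 there. The calls of Sult3a1, Saa1 and Saa2 were lost without control replicate 2 or without control replicate 3 (limma adjusted p 0.06189 to 0.147). Saa2 was also lost without L.J. replicate 1 (0.1165) and without L.J. replicate 3 (0.1785), and Saa1 without L.J. replicate 3 (0.0623). The part of these gene groups in the levels of Ndrg1 and Etnppl was not tested.

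In bulk liver, fewer cells of a type and less RNA per cell cannot be told apart. The labelled tissue carried its defining markers in every library, with the summed FPKM of 6 hepatocyte markers between 31987 and 51390 with L.J. and between 41698 and 60967 in control livers, and none of the 6 passed with all libraries, while 1 fell without L.J. replicate 2. The 7 Kupffer cell markers summed to 84.4 to 202 FPKM with L.J. and to 55.2 to 115 FPKM in control livers, and all 7 had a higher fitted level with L.J., of which none passed with all libraries and 3 did without L.J. replicate 2. The 6 neutrophil markers, of which 2 were tested, summed to 6.62 to 136 FPKM with L.J. and to 0.800 to 2.53 FPKM in control livers, and Mpo was at 0 in all busulfan libraries. Neither of the 2 tested passed with all libraries, and both rose without L.J. replicate 2, where 1800 of all 10786 genes passed. All 6 summed to 1.12 to 1.73 FPKM with busulfan and to 1.39 to 8.99 FPKM with both treatments. The 2 tested may thus have reached the filter of 1 FPKM in 3 libraries largely through the L.J. group, which favours a rise. Relative to the control mean, the median of the tested neutrophil markers was 5.06, 1.16 and 4.23 on the log2 scale in L.J. replicates 1, 2 and 3, and that of the Kupffer cell markers 1.23, 0.04 and 1.11.

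Schwann cells, which are known for high Ndrg1, left little trace: their 6 markers summed to 2.81 to 3.59 FPKM with L.J. and to 2.28 to 3.21 FPKM in control livers, and Sox10 was at 0 in all libraries of both groups. The 6 pancreatic acinar markers summed to 14.8 to 299 FPKM with both treatments, 2.06 to 9.30 with L.J., 16.3 to 25.7 with busulfan and 14.2 to 24.4 in control livers. Cela1, itself among the genes most like Ndrg1, is 1 of these 6 and made up most of the sum in L.J. and control livers. By itself it stood at 4.23, 7.73 and 2.02 FPKM with L.J. and at 13.87 to 24.3 FPKM in control livers. The lower sums with L.J. are thus mostly the value of 1 gene, which was picked for likeness to Ndrg1. Prss2 was at 0 in all L.J. and all control libraries. Of the other marker lists, none of the tested sinusoidal endothelial (6), stellate cell and fibroblast (6), cholangiocyte (2), mast cell (1), erythroid (5) or adipocyte (1) markers passed in L.J. versus control with all libraries. Without L.J. replicate 2, 1 sinusoidal endothelial and 1 cholangiocyte marker rose, and 1 erythroid and 1 pancreatic acinar marker (Cela1) fell. In that setting 1800 of all 10786 genes passed. The part of these cell types in the levels of the pair was not tested.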

How the data were processed

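Total RNA of liver was sequenced in 12 libraries. The deposited values are FPKM, to 2 decimals, of 21004 genes in a single table. The submitters' processing notes name Bowtie 0.12.2 and mm10, and no source used here gives the quantifier, the annotation or the strandedness. Groups were taken from the description in the labels. Gene IDs were matched to RefSeq (GRCm38.p6), where 20841 or 99.22% were found. Read counts were not recovered from FPKM, so no count test was run. Depth was estimated from the steps of low FPKM in genes with 1 annotated transcript shorter than 1200 bases (GENCODE lengths).

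From the deposited FPKM, log2(FPKM + 1) was fitted for the 10786 genes that reached 1 FPKM in 3 or more libraries, with limma 3.58.1 in R 4.3.3. The model held 4 group means over all 12 libraries (8 residual degrees of freedom), with eBayes and a mean-variance trend. Tests were two-sided, with Benjamini-Hochberg adjustment over all genes of a comparison and a threshold of 0.05. The fit was tested on simulated data. Members and gene lists were chosen with earlier results of these data known, and a list is described by its counts and its median. The genes named are the pair, the 6 genes most correlated with each over the 12 libraries on the log2 scale (predicted genes left out), the NDRG, AGXT2, phosphatidylethanolamine and NDRG1 regulator lists, and from other lists up to 6 genes that passed or the 3 with the smallest p; Chka and Aldh2 were named for their function after their values were seen. The result of 1 listed gene is not reported here.

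Same-numbered busulfan and control libraries deviated together from their group means (correlations of 0.399, 0.157 and 0.110 for numbers 1, 2 and 3). Number 1 gave 0.384 for L.J. and control as well. Libraries with different numbers were not compared, so whether the numbers mark pairs was not tested. Other pairs of groups gave correlations under 0.1 for at least 1 number. The replicate block, 2 pseudocounts, 2 filters, 3 scalings, 2 variance settings, fits of fewer groups and leaving out each library were tried as alternatives.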

Additional observations from a re-analysis of the deposited data

Results flagged for a closer look

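For 9 genes named above, the effect of a treatment lay on opposite sides with and without the other treatment in every library of the first group, each set against the mean of the group it was compared with, although single libraries of 2 such groups can overlap. The share of all genes tested that meets this rule is not known, so the 9 are only a list. For Ndrg1 the effect of busulfan without L.J. was -0.17 (95% interval -0.48 to 0.14), which was not detectable. The values are differences of log2 fold changes on the log2(FPKM + 1) scale. For the effect of busulfan with L.J. minus its effect without, they were 1.31 for Ndrg1, 0.89 for Serpina5, 0.70 for Cwf19l1, -0.25 for Ptdss1, -0.41 for Egln2, -0.44 for Mycl, -0.47 for Arnt and -0.76 for Mycn. For the effect of L.J. with busulfan minus its effect without, they were 0.70 for Cwf19l1, 0.49 for Rtn4ip1 and -0.44 for Mycl. The difference of Ndrg1 was not tested, since it is the pattern the gene was chosen for, and those of Serpina5, Cwf19l1 and Rtn4ip1, which were picked for likeness to Ndrg1, were not tested for the same reason. In the interaction of the same limma model none of the 10786 genes passed (0%), Ptdss1, Egln2, Mycl, Arnt and Mycn included, and 705 genes had an unadjusted p under 0.05.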

How the results depend on the processing

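Ndrg1 stayed between -1.263 and -0.9502 and Etnppl between -1.429 and -1.125 in L.J. versus control over all 18 alternatives, and for both treatments against L.J. alone the ranges were 1.019 to 1.293 and 1.001 to 1.256. Neither gene passed in busulfan versus control or in busulfan plus L.J. versus busulfan in any of the 18, with lowest adjusted p-values of 0.9405 and 0.9215 for Ndrg1 and 0.9885 and 0.9204 for Etnppl (limma). In busulfan plus L.J. versus control the sign was not fixed, from -0.02 to 0.20 for Ndrg1 and from -0.25 to 0.01 for Etnppl. Counts of genes that passed depended on the setting, and the cause was not tested. In L.J. versus control (27), they were 11 without a filter, 112 with median scaling, 63 with quantile normalization, 118 without Mup genes, 0 with only the compared groups and 7 without L.J. replicates 1 and 3 (added after seeing the data), and leaving out 1 library gave 1 to 1800. For both treatments against L.J. alone (3), median scaling, quantile normalization, leaving out Mup genes and the replicate block each gave 1, and leaving out 1 library gave 0 to 1164. In busulfan plus L.J. versus control (0), 1 passed without a filter, 3 without the L.J. group and 3 with only the compared groups, and leaving out 1 library gave 0 to 5. In busulfan versus control (0), 1 passed with only the compared groups and 0 to 1 when 1 library was left out, 1 without control replicate 1. In busulfan plus L.J. versus busulfan (0), 1 passed without a filter and 0 when any library was left out. The replicate block gave 21 genes in L.J. versus control, 0 in the other 3 comparisons, and changed no call of the pair. Depth is known only by the estimate from low values, at least 251 reads for either gene in every library, and the 3 libraries of a group limit the precision.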
